A study of Mus musculus with 48 samples.

Results

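The CC chemokines are small secreted proteins that attract leukocytes, and they signal through CC receptors on the cells they attract. Here 9 genes of this system were described in the neurovascular unit after experimental stroke: the ligands *Ccl2*, *Ccl3*, *Ccl4*, *Ccl5*, *Ccl7*, *Ccl9*, *Ccl11* and *Ccl12* and the receptor *Ccr2*. They were taken by symbol from the 24973 genes of the deposited table, and all 9 were found. CCL2, CCL7 and CCL12 are ligands of CCR2, through which inflammatory monocytes are recruited. CCL3, CCL5 and CCL9 bind CCR1, whereas CCL11 (eotaxin) attracts eosinophils through CCR3. In the injured brain, activated microglia are a known source of many of these ligands.

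RNA was sequenced from microglia, astrocytes, pericytes and endothelial cells sorted from the ipsilateral (ischemic) and the contralateral hemisphere of adult male wild-type C57BL/6 mice. All mice had undergone transient occlusion of the middle cerebral artery (tMCAO) for 1 h with reperfusion for 23 h, so that the contralateral hemisphere is a control within the same operated animal and not one from unoperated mice. The 48 libraries form 8 groups of 6 replicates, each from a pool of 3 to 4 mice. The sources do not state that a replicate number marks the same pool in every group, so hemispheres were compared as unpaired groups. Microglia were sorted as CD45low CD11b+ cells and the other cell types as CD45-negative cells, by surface proteins and not by a transgene. In 12 ipsilateral libraries the labels conflict, since titles say microglia where columns say pericytes and the reverse. The column names were used: the summed level of 4 microglia markers (*Aif1*, *Tmem119*, *Cd68*, *Csf1r*) was 91419 to 163197 normalized counts in the ipsilateral libraries whose columns name microglia and 267 to 28388 in those whose columns name pericytes.

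Levels are normalized counts, that is, reads on a gene divided by a size factor of the library and rounded by the authors. Libraries held an estimated 4900000 to 17100000 reads on genes, 1 read was worth 0.66 to 2.36 normalized counts, and a count of 0 therefore allows up to 7.1 normalized counts (3 reads, counting error only). The summed level of the 4 marker genes of each cell type was highest in the libraries of that type. RNA of microglial genes was, however, also present in the other cell types, and differed between replicates: the median of 9 microglial genes (*P2ry12*, *Tmem119*, *Cx3cr1*, *Csf1r*, *Aif1*, *Siglech*, *Olfml3*, *C1qa*, *Ctss*) in ipsilateral libraries of replicates 1 to 4, as a percentage of its mean in ipsilateral microglia, was 1.46% to 6.95% in astrocytes, 3.94% to 18.9% in pericytes and 1.82% to 13.4% in endothelial cells. In replicates 5 and 6 it was 0.241% to 0.354%, 0% to 0.00266% and 0.137% to 0.164%, respectively. The 9 genes differed among themselves in these replicates: the highest of them (*Olfml3*) stood at 3% to 3.87% in astrocytes, 1.31% to 2.04% in pericytes and 0.347% to 0.473% in endothelial cells, and their sum at 0.398% to 0.542%, 0.147% to 0.186% and 0.166% to 0.183%. By the test below, 4 of these 9 genes were called lower in ipsilateral than in contralateral microglia. Levels are therefore given for both sets of replicates, and the part of microglial RNA in the levels of members outside microglia was not tested. Since the libraries hold many cells, more cells making a chemokine and more RNA per cell cannot be told apart.

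The 8 ligand genes lie in a pair of clusters on chromosome 11 (GRCm38). *Ccl2* (chr11:82035571-82037453), *Ccl7* (chr11:82045712-82047525), *Ccl11* (chr11:82057823-82062955) and *Ccl12* (chr11:82101845-82103400) follow each other on the plus strand. *Ccl5* (chr11:83525778-83530518), *Ccl9* (chr11:83572919-83578636) and *Ccl3* (chr11:83647844-83649355) lie on the minus strand, beside *Ccl4* (chr11:83662584-83664683) on the plus strand. *Ccr2* lies on chromosome 9 (chr9:124101950-124113557, plus strand). Although the ligands are paralogs, no stretch of 75 bases of the transcripts of any of the 8 occurred in a transcript of another gene, so exact reads of that length can be assigned to each of them. Shorter reads left by trimming and reads with mismatches, both of which the authors allowed, were not examined.

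RefSeq promoters (GRCm38.p6) were at hand for *Ccl3*, *Ccl9*, *Ccl12* and *Ccr2*, 4 of the 9 genes. The 250 bases before the RefSeq start are shown for the 3 ligands, because *Ccl9* and *Ccl12* were higher in ipsilateral microglia by the test below and *Ccl3* was not; matches to searched motifs are in capitals.
Ccl12 (chr11:82101595-82101844, plus strand): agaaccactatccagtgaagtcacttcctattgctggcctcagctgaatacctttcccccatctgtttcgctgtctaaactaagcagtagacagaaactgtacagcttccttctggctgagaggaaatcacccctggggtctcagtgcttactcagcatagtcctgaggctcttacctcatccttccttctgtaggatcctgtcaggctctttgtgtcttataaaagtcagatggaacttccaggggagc
Ccl9 (chr11:83578637-83578886, minus strand): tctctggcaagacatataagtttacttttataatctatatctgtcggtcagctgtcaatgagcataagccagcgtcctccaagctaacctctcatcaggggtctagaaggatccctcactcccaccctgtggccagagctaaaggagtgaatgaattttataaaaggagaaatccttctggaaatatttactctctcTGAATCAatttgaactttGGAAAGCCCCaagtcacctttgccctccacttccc
Ccl3 (chr11:83649379-83649628, minus strand): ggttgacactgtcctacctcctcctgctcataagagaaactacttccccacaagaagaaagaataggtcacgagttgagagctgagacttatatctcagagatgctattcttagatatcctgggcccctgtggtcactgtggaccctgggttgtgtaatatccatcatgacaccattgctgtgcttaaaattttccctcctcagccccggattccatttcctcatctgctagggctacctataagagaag
Both strands were searched for the NF-kappaB consensus, for a loosened AP-1 pattern and for the interferon-stimulated response element GAAANNGAAA. The loosened pattern, TGANTCA, allows any base at its center and is wider than the AP-1 consensus. In *Ccl9* a match to the loosened AP-1 pattern (TGAATCA, with A at its center) begins 53 bases before the start. An NF-kappaB match begins 35 bases before the start, and they do not overlap. None of the 3 motifs was matched in the windows of *Ccl12*, *Ccl3* and *Ccr2*. Of 32817 mouse promoter windows of the same length, 7.25% held the NF-kappaB consensus, 6.75% the loosened AP-1 pattern and 2.97% the response element, and a match is only a description of the letters.

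In the contralateral hemisphere, microglia held the most RNA of every member but *Ccl11*. Compared per kilobase of exon, the order of mean levels in contralateral microglia was *Ccl4* (78959 normalized counts per kilobase), *Ccl3* (24962), *Ccl12* (8945), *Ccl2* (981), *Ccl9* (763), *Ccl7* (591), *Ccl5* (52.3), *Ccr2* (8.65) and *Ccl11* (1.54). *Ccl3* and *Ccl4* together made up 0.225% to 0.914% of all normalized counts of a contralateral microglial library. This order was the same in replicates 1 to 4 and in replicates 5 and 6. In ipsilateral microglia, *Ccl12* stood above *Ccl3* in mean level in both sets (40197 and 38398 normalized counts per kilobase in replicates 1 to 4, 28046 and 18420 in replicates 5 and 6). *Ccl9* was above *Ccl2* in replicates 1 to 4 (7869 and 4967 normalized counts per kilobase) and below it in replicates 5 and 6 (1317 and 2574). By the F test of limma over the 4 contralateral groups, 8 of the 9 members differed between cell types, with adjusted p from 8.46e-08 for *Ccl5* to 0.00165 for *Ccl9*, whereas *Ccl11* did not pass (adjusted p = 0.841). This test passed for 78.7% of all genes, so that the share of members is near the background. The plot of levels by library shows the 8 groups of each gene.

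**Figure D1:**
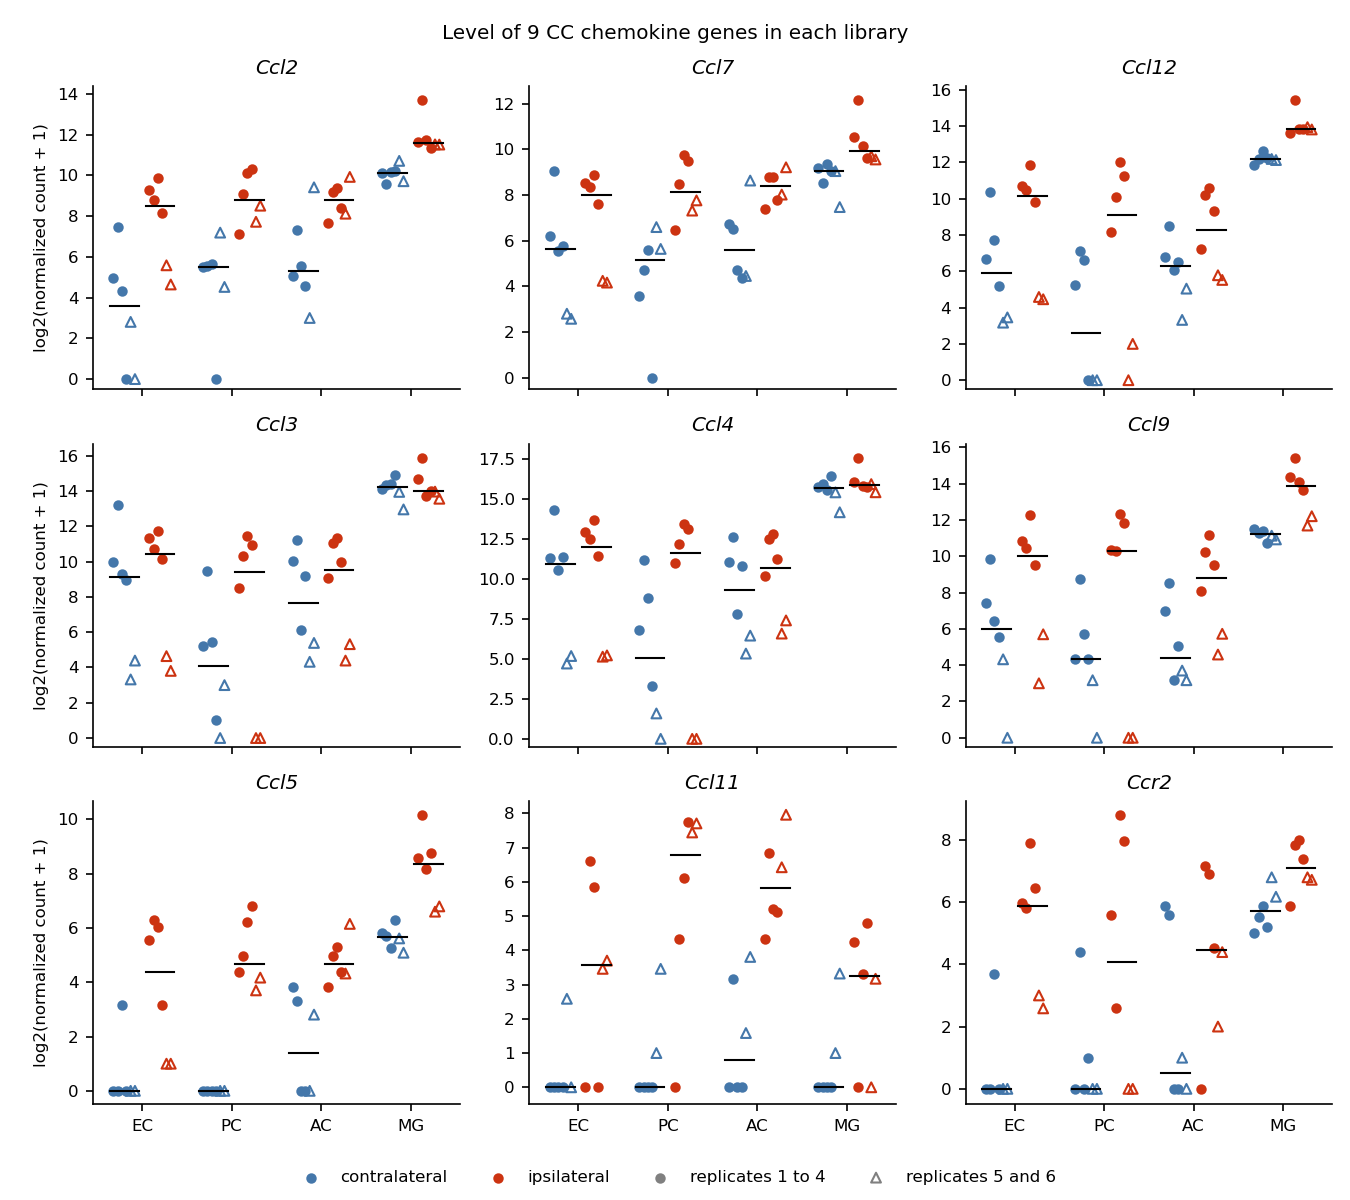
Level of each gene, as log2(normalized count + 1), in the 6 libraries of each cell type (MG, microglia; AC, astrocytes; PC, pericytes; EC, endothelial cells) and hemisphere; circles are replicates 1 to 4, triangles replicates 5 and 6, and lines the medians. The medians of microglia are the highest for all genes but *Ccl11*, and in ipsilateral pericytes *Ccl3*, *Ccl4* and *Ccl9* are at 0 in replicates 5 and 6.

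Between hemispheres, a gene was called upregulated when its adjusted p was at most 0.05 (limma on log2(normalized count + 1), Benjamini-Hochberg over all genes tested), its fold change at least 1.5 and its level above 10 normalized counts in all 6 libraries of at least 1 hemisphere. In microglia, 5 of 8 members tested were upregulated, against a background of 4.29% of all genes: *Ccl2*, *Ccl5*, *Ccl7*, *Ccl9* and *Ccl12*. In pericytes 1 of 9 (*Ccl5*) was upregulated against a background of 0.441%, in astrocytes 1 of 9 (*Ccl11*) against 0.334%, and in endothelial cells 0 of 9 against 0.362%, where 4 of the 9 and 11.9% of all genes had an unadjusted p under 0.05. The 6 ipsilateral libraries lay above all 6 contralateral ones for the same 5 of 8 members in microglia (3.78% of all genes), the same 1 of 9 in pericytes (0.838%), the same 1 of 9 in astrocytes (0.655%) and 0 of 9 in endothelial cells (1.13%). No member was called lower in any cell type. The median log2 fold change of the members tested was 1.68 in microglia, 2.43 in astrocytes, 3.86 in pericytes and 2.84 in endothelial cells, beside -0.18, -0.06, -0.04 and -0.03 over all genes. No test showed that the stroke change of any member differed between cell types (F test of the interaction, adjusted p from 0.639 to 0.998; 0.66% of all genes passed).

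**Figure D2:**
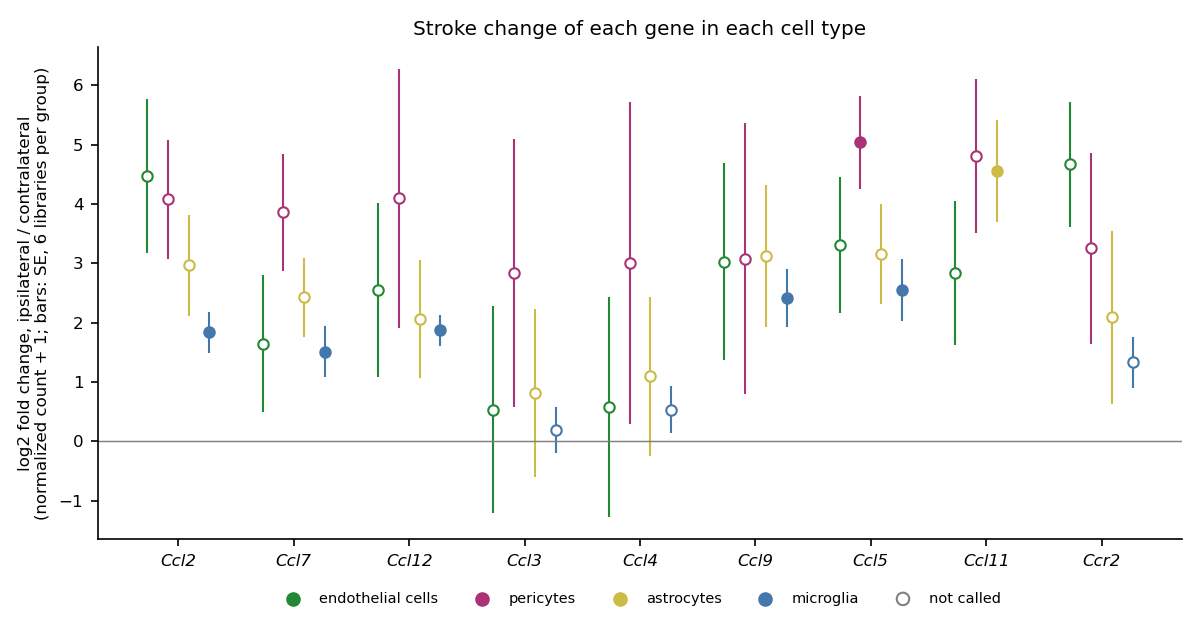
Log2 fold change, ipsilateral over contralateral, of each gene in each cell type on the log2(normalized count + 1) scale, with the standard error from 6 libraries per group; filled points are called upregulated. Estimates in microglia have the shortest error bars, and those of *Ccl3* and *Ccl4* in microglia lie at 0.20 and 0.54.

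Among the CCR2 ligands, *Ccl2*, the main attractant of monocytes, had 760, 1118 and 1676 normalized counts (lowest, median and highest of 6 libraries) in contralateral microglia and 2599, 3088 and 13327 in ipsilateral microglia. The hemispheres did not overlap, and the log2 fold change was 1.84 ± 0.34 (SE; adjusted p = 0.00395, limma). *Ccl12*, a mouse ligand of CCR2, went from 3753, 4626 and 6412 to 12722, 14642 and 44336 normalized counts in microglia, again without overlap. Its log2 fold change was 1.87 ± 0.27 (adjusted p = 0.000787, limma). *Ccl7*, which also binds other CC receptors, had 177, 529 and 657 normalized counts in contralateral and 754, 990 and 4601 in ipsilateral microglia. The log2 fold change was 1.51 ± 0.42 (adjusted p = 0.0331, limma), but leaving out replicate 1, 3, 4, 5 or 6 raised the adjusted p of *Ccl7* to between 0.0502 and 0.0805. Replicate 2 was the highest ipsilateral microglial library for all 3 genes, and without it their log2 fold changes were 1.38 (*Ccl2*), 1.59 (*Ccl12*) and 1.09 (*Ccl7*), all still called.

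Outside microglia, *Ccl2* and *Ccl7* differed from *Ccl12* in replicates 5 and 6. In ipsilateral pericytes, *Ccl2* had 139, 454 and 1289 normalized counts against 0, 45 and 145 contralaterally, and *Ccl7* had 89, 288 and 868 against 0, 36.5 and 96. The lowest ipsilateral library of each lay within the contralateral range, and contralateral replicate 4 was at 0 for both. The log2 fold changes of 4.08 ± 1.00 (*Ccl2*, adjusted p = 0.0749, limma) and 3.86 ± 0.98 (*Ccl7*, adjusted p = 0.0806, limma) missed the threshold. In replicates 5 and 6, ipsilateral *Ccl2* was at 210 and 364 and *Ccl7* at 159 and 217 normalized counts. That was 4.43% and 7.67% of the microglial mean for *Ccl2* and 9.95% and 13.6% for *Ccl7*. The highest of the 9 microglial genes stood at 2.04% and 1.31% in the same libraries, and the part of microglial RNA in these levels was not tested. Contralaterally these replicates had 145 and 22 of *Ccl2* and 96 and 49 of *Ccl7*. The log2 fold changes over these 2 replicates alone were 2.26 and 1.42, not called in a joint fit of all cell types. *Ccl12* was at 0 and 3 in the same ipsilateral pericyte libraries, after 286 to 4177 in replicates 1 to 4.

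In astrocytes, *Ccl2* had 7, 39 and 681 normalized counts contralaterally and 202, 463 and 971 ipsilaterally, and *Ccl7* had 20, 58 and 397 against 169, 349 and 594. The groups overlapped through contralateral replicate 6. The log2 fold changes were 2.97 ± 0.85 for *Ccl2* (adjusted p = 0.244, limma) and 2.43 ± 0.66 for *Ccl7* (adjusted p = 0.21, limma), and neither was called. Ipsilateral *Ccl2* was at 4.26% to 14% of its microglial mean in replicates 1 to 4 and at 5.84% and 20.5% in replicates 5 and 6, in which the median of the 9 microglial genes was 0.241% and 0.354% and the highest 3% and 3.87%. *Ccl12* was, in contrast, at 0.768% to 7.99% of its microglial mean in replicates 1 to 4 and 0.232% to 0.278% in replicates 5 and 6. The astrocyte libraries also held RNA of 5 oligodendrocyte genes, summing to 31766 to 359179 normalized counts over both hemispheres. The 4 astrocyte markers (*Gfap*, *Aldh1l1*, *Slc1a3*, *Aqp4*) summed to 41095 to 121715 there. These libraries also held RNA of leukocyte genes, whose summed levels had higher medians ipsilaterally. The summed level of 8 neutrophil genes was 36 to 1416 normalized counts contralaterally and 238 to 5357 ipsilaterally, and in replicates 5 and 6 it was 36 and 98 against 238 and 416. That of 8 monocyte genes was 34 to 1125 and 256 to 2309, and that of 7 border macrophage genes 43 to 352 and 64 to 1044. Of the genes tested, 0 of 5 neutrophil, 1 of 5 monocyte and 1 of 5 border macrophage genes were called higher, with median log2 fold changes from 2.43 (border macrophage genes) to 3.91 (neutrophil genes). The part of these genes' source cells in the levels of *Ccl2* and *Ccl7* in astrocytes was not tested.

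In endothelial cells, *Ccl2* had 0, 12.5 and 177 normalized counts contralaterally and 24, 365 and 950 ipsilaterally. The groups overlapped, and the log2 fold change of 4.47 ± 1.30 was not called (adjusted p = 0.158, limma). *Ccl7* had 5, 49.5 and 524 against 17, 264 and 466 normalized counts, with a log2 fold change of 1.65 ± 1.15 (adjusted p = 0.623, limma). Its highest contralateral value, in replicate 2, was above all ipsilateral ones. In replicates 5 and 6 ipsilateral endothelial cells had 47 and 24 normalized counts of *Ccl2* and 18 and 17 of *Ccl7*, that is 0.991% and 0.506% and 1.13% and 1.06% of the microglial means, where the highest of the 9 microglial genes stood at 0.473% and 0.347%.

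**Figure D3:**
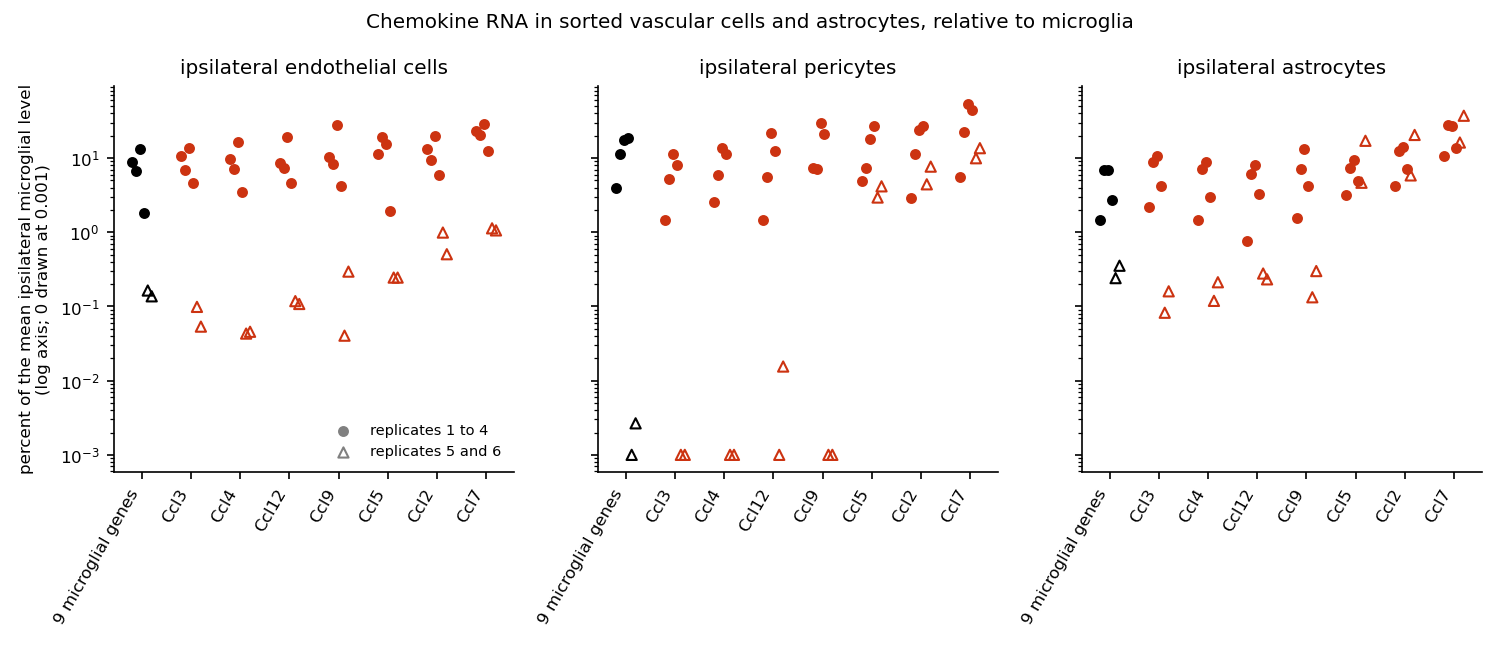
Level of 7 ligand genes (red) and the median of 9 microglial genes (black) in each ipsilateral library of endothelial cells, pericytes and astrocytes, as a percentage of the mean level in ipsilateral microglia (log axis, with 0 drawn at 0.001); circles are replicates 1 to 4 and triangles replicates 5 and 6. In replicates 5 and 6 of pericytes and astrocytes, *Ccl3*, *Ccl4*, *Ccl9* and *Ccl12* lie at or below 0.3%, and *Ccl2*, *Ccl5* and *Ccl7* between 2.94% and 37.2%.

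*Ccr2*, the receptor of these ligands and a marker of inflammatory monocytes, was low: 31, 51.5 and 110 normalized counts in contralateral and 57, 139 and 251 in ipsilateral microglia. The hemispheres overlapped, and the log2 fold change of 1.33 ± 0.43 was not called (adjusted p = 0.0591, limma). Over the same microglial libraries the summed level of 8 monocyte genes was 452 to 1579 normalized counts contralaterally and 1615 to 4219 ipsilaterally, and 2 of these 8 genes were called higher; their part in the level of *Ccr2* was not tested. In ipsilateral pericytes *Ccr2* reached 445 (replicate 3) and 249 (replicate 4), above its mean in microglia, and was at 0 in replicates 5 and 6. Ipsilateral endothelial libraries had 55 to 238 normalized counts in replicates 1 to 4 and 7 and 5 in replicates 5 and 6, after at most 12 contralaterally. That log2 fold change of 4.67 ± 1.06 was not called (adjusted p = 0.0739, limma). The endothelial libraries also differed in leukocyte genes: the summed level of 8 neutrophil genes was 335 to 1670 normalized counts contralaterally and 2052 to 10221 ipsilaterally in replicates 1 to 4, and 28 and 6 against 80 and 224 in replicates 5 and 6, with *Camp* at 0 in all 12 libraries. That of the monocyte genes was 1481 to 3007 and 1996 to 7914 in replicates 1 to 4. In replicates 5 and 6 it was 1204 and 1035 against 2535 and 2520. In the same contralateral replicates this sum was 195 and 108 in pericytes and 156 and 103 in astrocytes. Of these genes, 1 of 5 neutrophil genes and 0 of 8 monocyte genes tested were called higher, and 5 of the 8 monocyte genes had an unadjusted p under 0.05; their part in the levels of *Ccr2* and the ligands in endothelial cells was not tested. In astrocytes *Ccr2* ranged from 0 to 57 contralaterally and from 0 to 143 ipsilaterally. The summed level of 8 neutrophil genes in ipsilateral pericytes was 29, 5602, 13452 and 6608 normalized counts in replicates 1, 2, 3 and 4 and 50 and 149 in replicates 5 and 6, and that of the monocyte genes was 771 to 9373 and 127 to 258; their part in the levels of *Ccr2* and the ligands in pericytes was not tested.

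*Ccl3* and *Ccl4*, which encode the macrophage inflammatory proteins, were the most abundant members in microglia of both hemispheres by mean normalized counts over the 6 libraries. In ipsilateral replicates 5 and 6 alone, however, the mean of *Ccl12* (15061) was above that of *Ccl3* (14110). *Ccl3* and *Ccl4* had the smallest estimated changes of the members tested in microglia. In microglia *Ccl3* had 7989, 19194 and 30694 normalized counts contralaterally and 12147, 16225 and 61241 ipsilaterally. *Ccl4* had 18096, 51150 and 87013 contralaterally and 42999, 58443 and 192610 ipsilaterally. The groups of both genes overlapped, and the log2 fold changes of 0.20 ± 0.38 (adjusted p = 0.769, limma) and 0.54 ± 0.39 (adjusted p = 0.39, limma) were not called. Replicate 2 was again the highest ipsilateral library, and without it the log2 fold change of *Ccl3* was -0.07 and that of *Ccl4* 0.32.

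In the other cell types the levels of *Ccl3* and *Ccl4* were spread widely over the replicates. In ipsilateral pericytes *Ccl4* had 2038, 4678, 10888 and 8874 normalized counts in replicates 1, 2, 3 and 4 and 0 in both replicates 5 and 6. *Ccl3* had 360, 1263, 2795 and 1967 and again 0 in both. Endothelial *Ccl4* ranged from 2754 to 12828 ipsilaterally and from 1457 to 19852 contralaterally in replicates 1 to 4, and from 25 to 36 over both hemispheres in replicates 5 and 6. The highest value outside microglia was that of contralateral endothelial replicate 2 (*Ccl4* 19852, *Ccl3* 9575), at 38.1% and 50.1% of the contralateral microglial mean, where the median of the microglial genes stood at 4.01% and the highest of them at 32.3%. That library's total was 15633875 normalized counts, against 10936238 to 11611632 in the other contralateral endothelial libraries. Astrocytes had 94 and 167 normalized counts of *Ccl4* in ipsilateral replicates 5 and 6, that is 0.119% and 0.212% of microglia beside 0.241% and 0.354% for the median of the microglial genes. No hemisphere difference of either gene was called in these 3 cell types, with log2 fold changes from 0.54 ± 1.75 (*Ccl3*, endothelial cells) to 3.01 ± 2.71 (*Ccl4*, pericytes).

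*Ccl9*, a ligand of CCR1, had 1671, 2364 and 2938 normalized counts in contralateral microglia and 3304, 15208 and 44305 in ipsilateral microglia, with no overlap. Its log2 fold change was 2.42 ± 0.49 (adjusted p = 0.00648, limma). The ipsilateral levels of replicates 5 and 6 (3304 and 4718) lay below those of replicates 1 to 4 (12671 to 44305), whereas contralaterally the sets overlapped. The log2 fold change of *Ccl9* was 3.17 in replicates 1 to 4 and 0.92 in replicates 5 and 6, and that of *Ccl12* was 1.95 and 1.72. *Ccl9* was called in replicates 1 to 4 by a fit of microglia alone. It was not called in replicates 5 and 6 by a joint fit of all cell types, so these calls cannot be compared. In ipsilateral microglia, 7 border macrophage genes summed to 1209 to 4196 normalized counts in replicates 1 to 4 and 807 and 589 in replicates 5 and 6. For 8 monocyte genes the sums were 1659 to 4219 and 2481 and 1615. The part of these genes' source cells in the level of *Ccl9* was not tested. In the other cell types *Ccl9* went the way of *Ccl3* and *Ccl4*: ipsilateral pericytes had 1250 to 5149 normalized counts in replicates 1 to 4 and 0 in both others, endothelial cells 735 to 4869 and then 7 and 51, and astrocytes 274 to 2284 and then 23 and 52. None of these 3 differences was called (adjusted p from 0.446 in astrocytes to 0.55 in pericytes, limma).

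*Ccl5* (RANTES), a ligand of CCR1, was called in both pericytes and microglia. In microglia it rose from 33, 49.5 and 77 to 96, 333 and 1146 normalized counts, with no overlap and a log2 fold change of 2.55 ± 0.52 (adjusted p = 0.0065, limma). Here too replicates 5 and 6 had the lowest ipsilateral levels (96 and 110), and their log2 fold change of 1.35 compares with 3.16 in replicates 1 to 4. Contralateral pericytes had 0 in all 6 libraries, and ipsilateral pericytes had 12, 25 and 110 (lowest, median, highest), above 0 in every library. Against a floor of 3 reads, 3.19 normalized counts on average over the contralateral pericyte libraries, the mean of 43.8 ± 39.4 (SD, n = 6) is at least 13.8-fold higher. The fitted log2 fold change of 5.04 had an adjusted p of 0.0125 (limma), and without replicate 3, 4 or 6 this became 0.0765, 0.0779 and 0.0707. In replicates 5 and 6 of ipsilateral pericytes *Ccl5* was at 12 and 17, or 2.94% and 4.16% of its microglial mean, where the median of the 9 microglial genes was 0% and 0.00266% and the highest 2.04% and 1.31%. Ipsilateral astrocytes had 13, 25 and 70 normalized counts against 0, 3 and 13, with a log2 fold change of 3.16 ± 0.84 that was not called (adjusted p = 0.197, limma). In ipsilateral endothelial cells *Ccl5* was at 8 to 78 in replicates 1 to 4 and at 1 in both replicates 5 and 6, and the difference was not called (adjusted p = 0.24, limma).

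*Ccl11*, the eosinophil attractant, had a different distribution, with its highest levels in ipsilateral pericytes and astrocytes and not in microglia. In astrocytes it had 0, 1 and 13 normalized counts contralaterally and 19, 60.5 and 248 ipsilaterally. These groups did not overlap, and the log2 fold change was 4.56 ± 0.86 (adjusted p = 0.0426, limma). Without replicate 1, 2, 3, 4 or 5 the adjusted p of *Ccl11* in astrocytes became 0.0892 to 0.213 with log2 fold changes of 4.42 to 4.73, and without replicate 6 it was 0.0413. In pericytes *Ccl11* was at 0 in contralateral replicates 1 to 4 and at 1 and 10 in replicates 5 and 6, against 0, 19, 68, 212, 173 and 208 in ipsilateral replicates 1 to 6. The log2 fold change of 4.81 ± 1.30 was not called (adjusted p = 0.0982, limma), and ipsilateral replicate 1, at 0, kept the gene from the level required. Pericyte libraries of both hemispheres held RNA of 7 fibroblast genes, summing to 9052 to 18064 normalized counts contralaterally and 11531 to 23506 ipsilaterally, against 564 to 1926 in astrocytes; its part in the level of *Ccl11* was not tested. Ipsilateral endothelial cells had 96 and 57 in replicates 2 and 3, 10 and 12 in replicates 5 and 6 and 0 in the others. Ipsilateral microglia did not exceed 27 normalized counts, and the mean over the 12 microglial libraries was below the 10 normalized counts needed for a test.

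The order of cell types was clear only at its top. In the ipsilateral hemisphere the 6 microglial libraries lay above every library of the next cell type for *Ccl2*, *Ccl3*, *Ccl4* and *Ccl12*, and contralaterally for *Ccl2*, *Ccl5*, *Ccl9* and *Ccl12*. Below microglia, and for *Ccl11* and *Ccr2* throughout, neighbouring cell types overlapped in both hemispheres. For *Ccl7*, microglia (754 to 4601 normalized counts ipsilaterally) and pericytes (89 to 868) overlapped too.

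Across all 48 libraries, the genes whose log2 level was most like that of each member were described by Pearson's r, which here reflects the cell types, hemispheres and microglial RNA that the libraries share. *Ccl3* was most like *Ccl4* (r = 0.985), *Tyrobp* (0.984) and *Tnf* (0.98), and *Ccl4* was most like *Tyrobp* (0.987), *Ccl3* (0.985) and *Ly86* (0.983). *Ccl12* had *Rac2* (0.983), *C5ar1* (0.98) and *Tyrobp* (0.972), and *Ccl9* had *Cd52* (0.958), *Ccl6* (0.954) and *Cd68* (0.95). These are genes of myeloid cells. *Ccl2* was most like *Ccl7* (0.92), *Ccl5* (0.87) and *Ifi204* (0.861), *Ccl7* like *Ccl2* (0.92), *Cxcl10* (0.879) and *Ccl5* (0.852), and *Ccl5* like *Gpr35* (0.878), *Ctsb* (0.871) and *Ccl2* (0.87). *Ccr2* came closest to *Msr1* (0.882), *Mcemp1* (0.876) and *Hcar2* (0.871). *Ccl11* had lower values, with *Il11* (0.805), *Met* (0.801) and *Tnc* (0.732), which encode a cytokine, a growth factor receptor and a matrix protein.

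Of 31 other genes of the family that were listed, 23 are in the table: 10 ligands, 7 receptors and 6 atypical or related receptors. Only *Ccr1*, the receptor of CCL3, CCL5 and CCL9, was called in any cell type. In microglia *Ccr1* rose from 195, 385 and 625 to 1591, 2538 and 3648 normalized counts, with no overlap and a log2 fold change of 2.71 ± 0.27 (adjusted p = 3.29e-05, limma). Thus in microglia 0 of 5 other ligands tested, 1 of 4 receptors and 0 of 4 atypical or related receptors were upregulated and 0 were downregulated, and in endothelial cells, pericytes and astrocytes 0 of 13, 0 of 15 and 0 of 11 were called in either direction. Outside microglia the estimates of *Ccr1* were larger, with overlapping hemispheres. They were 5.66 ± 1.325 in endothelial cells (adjusted p = 0.0859, limma), 4.31 ± 2.06 in pericytes (adjusted p = 0.336) and 3.52 ± 1.23 in astrocytes (adjusted p = 0.399). With the replicate number as a block, *Ccr1* was also called in endothelial cells (adjusted p = 0.0456, limma), but not in pericytes or astrocytes.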

How the data were processed

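RNA of 48 libraries from 8 groups was analysed. According to the submitters' processing notes, the authors trimmed reads with Trimmomatic 0.38, aligned them with STAR 2.6.1d to GRCm38 (mm10), counted them on genes with featureCounts 1.6.3, leaving out reads that overlapped several genes or mapped to several places, and normalized the counts with DESeq2 1.18.1. Whether counting used strand is not given in the sources used here. What the authors deposited is a score, the normalized count of each gene after rounding, and not raw counts, so no count test was run. Each library was amplified from little RNA, and reads are not independent molecules. Columns of comparisons made by the authors were not used.

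Hemispheres were compared in R 4.3.3 with limma 3.58.1 (trend, two-sided, Benjamini-Hochberg over all genes tested) on log2(normalized count + 1), a scale that understates changes of low genes, in 1 fit per cell type of genes with a mean of at least 10. Contrasts across cell types came from 1 joint fit of the 48 libraries, which assumes the same spread in all cell types and on simulated data made more false calls than its threshold allows. Tests were checked on simulated data with 200 changed genes. Hemispheres were compared without pairing, because the sources do not state that a replicate number marks 1 pool of mice across groups; the number was tried as a block with duplicateCorrelation. The reads behind a library were estimated from the spacing of its low values. Alternatives were other pseudocounts (0.1, 10), filters (none, 50) and scalings, the joint fit, other call rules, replicates left out and the cell types of the titles. Other family genes are named where called; for each member the 3 most alike genes are given. Some genes of the lists are not reported here. Members and gene lists were chosen with earlier results of these data known. Summaries and plots used Python 3.11.15, pandas 2.3.3 and matplotlib 3.10.9.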

Additional observations from a re-analysis of the deposited data

Results flagged for a closer look

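Of 63 groups of 6 libraries in which a member had a mean of at least 10 normalized counts, 5 held a library that stood apart from the other 5 by Dixon's test on the log2 scale, where chance gives about 1 in 20. In 4 of them it was ipsilateral microglia replicate 2, with 13327 normalized counts of *Ccl2* (next highest 3446), 192610 of *Ccl4* (67540), 4601 of *Ccl7* (1470) and 44336 of *Ccl12* (15724). The same library had the highest total of normalized counts of all libraries, 16942165, against 11218367 to 12391084 in the other ipsilateral microglial libraries. The part of this total in its levels was not tested. Its summed level of 8 neutrophil genes was 19478 normalized counts, against 4298 to 6755 in the other ipsilateral microglial libraries. Contralateral microglial libraries stood at 6337 to 7957, although *Ly6g*, 1 of the 8 genes, was at 0 in all of them. In microglia the sum is therefore not read as an amount of neutrophil RNA. Of 7 of these genes tested in microglia, 3 were called higher and 1 lower ipsilaterally. The part of these genes' source cells in the levels of that library was not tested. In contralateral pericytes, replicate 4 had 0 normalized counts of *Ccl2*, where the next lowest library had 22.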

How the results depend on the processing

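With the replicate number as a block, the members called were 6 in microglia (with *Ccr2*), 4 in astrocytes (*Ccl2*, *Ccl5*, *Ccl7*, *Ccl11*), 3 in pericytes (*Ccl2*, *Ccl5*, *Ccl7*) and 0 in endothelial cells, in place of 5, 1, 1 and 0. The share of all genes called in either direction was then 13.3%, 1.42%, 2.12% and 0.785%, in place of 10.6%, 0.341%, 1.02% and 0.491%. The numbers were not shown to pair the libraries: same-numbered libraries of the hemispheres deviated together with a mean r across genes of 0.14, 0.38, 0.23 and 0.23, but r was above 0.1 in 3, 5, 4 and 3 of 6 pairs, and 5, 9, 7 and 6 of 12 libraries were most like their own number. In the joint fit of 48 libraries the count was 1 in microglia (*Ccl5*), 2 in astrocytes, 3 in pericytes and 1 in endothelial cells (*Ccl2*), with 7.11%, 0.74%, 2.34% and 1.93% of all genes called. A pseudocount of 10 gave 3 in pericytes and a pseudocount of 0.1 gave 0 in astrocytes. Without a filter on low values astrocytes had 0, and with a mean of at least 50 both pericytes and astrocytes had 0, since *Ccl5* and *Ccl11* were then not tested. Replicates 1 to 4 alone gave 0 in pericytes and 0 in astrocytes, and replicates 5 and 6 alone gave 0 in pericytes, astrocytes and microglia, where 490, 25 and 500 of all genes were called (139, 52 and 1404 with all replicates). Replicates 5 and 6 alone were tested in a joint fit of all cell types. Replicates 1 to 4 alone and all replicates were tested in 1 fit per cell type, so these counts cannot be compared directly. Leaving out each replicate in turn gave 4 to 5 in microglia, 0 to 3 in astrocytes, 0 to 2 in pericytes and 0 in endothelial cells. Shares of all genes called are not given for the pseudocounts, the filters, replicates 1 to 4 alone or single replicates left out. Counts of members under those settings are therefore not set against a background and are not read as a result about the members. Taking cell types from the sample titles gave 8 members in pericytes, where 44.9% of all genes were then called, and turned the log2 fold changes in microglia to -1.26 (*Ccl2*), -7.25 (*Ccl3*), -7.24 (*Ccl4*), -0.58 (*Ccl5*), -0.56 (*Ccl7*), -3.69 (*Ccl9*) and -4.96 (*Ccl12*), since ipsilateral libraries with pericyte markers are then set against contralateral microglia. The counts of members for the interaction (0) and for the contralateral level (8) were the same under every alternative run. In the main fit 0.66% and 78.7% of all genes passed these tests. Shares under the alternatives are not given, so the unchanged counts are not read as a result about the members. Where no cause is given, the cause was not tested. Groups of 6 libraries limit what can be called, and values under about 7.1 normalized counts cannot be told from 0 in the shallowest library.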
